A study of Mus musculus with 19 samples.

Results

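The nuclear-encoded subunits of respiratory complex I were followed here through 35 Nduf genes, taken by name from a list and found in full among the 26621 genes of the RNA-seq count table. The cells were neural progenitor cells (NPCs), the dividing precursors of neurons and glia, from the mouse cerebral cortex at embryonic day 17.5, grown on Matrigel in medium with bFGF and EGF (20 ng/mL each). Their genotype was wild type (WT) or Mettl8 conditional knockout (cKO), and all groups shared this culture. Mettl8 encodes an RNA methyltransferase that places 3-methylcytidine (m3C) in mitochondrial tRNA. The study compared gene expression and m3C between the genotypes. RNA-seq covered 6 WT and 6 cKO libraries (SMART-seq2, 300 ng of total RNA), and hydrazine-aniline cleavage sequencing (HAC-seq, 8000 ng), in which reads start next to a cleaved m3C, on 4 WT and 3 cKO libraries. The library names give 2 sets, with WT 1 to 3 and cKO 1 and 2 in set 1 and WT 4 to 6 and cKO 3 to 6 in set 2. The sources used here do not give what a set is (a sequencing run, a culture or a litter) or the Cre driver. They do not say whether replicates are separate cultures or animals, so each p-value rests on the spread among these libraries alone. Among libraries of like sex (given below) that spread could be technical.

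Complex I takes electrons from NADH, passes them to ubiquinone and pumps protons across the inner mitochondrial membrane. It is L-shaped. Its matrix arm holds the N module, which oxidizes NADH, and the Q module, which reduces ubiquinone, and its membrane arm has a proximal and a distal part that pump protons. The core of the membrane arm is encoded in mitochondrial DNA and made by mitochondrial ribosomes, which read it with mitochondrial tRNAs, while the core of the matrix arm and all accessory subunits come from nuclear genes and are imported. By module, the 35 genes were 10 of the N module, 5 of the Q module, 9 of the proximal and 10 of the distal membrane arm, and Ndufab1, the mitochondrial acyl carrier protein, which sits in both arms. Of the 15 matrix arm genes 6 were core subunits (Ndufv1, Ndufv2, Ndufs1, Ndufs3, Ndufs7 and Ndufs8), and the other 29 genes of the 35 were accessory subunits.

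Total counts were 17.0 ± 1.62 M in WT (SD, n = 6) and 14.5 ± 1.46 M in cKO (SD, n = 6), from 11830839 to 18863781 per library. All 35 subunit genes passed the filter on low counts, with 13105 genes tested. The progenitor markers fixed for the label (8 of 8 in the table) summed to 12430 to 15773 CPM (counts scaled to library size by TMM) in WT and to 11012 to 15178 in cKO, against at most 7.76 CPM for 5 microglia markers. Most of that sum was Fabp7 and Slc1a3 (WT means of 7816 and 5507 CPM), while Nes, Sox2 and Pax6 had WT means of 59.7, 68.3 and 84.1. Astrocyte markers summed to 1315 to 2631 CPM in WT and 996 to 2673 in cKO, and oligodendrocyte lineage markers to 424 to 1119 and 369 to 1114. Mettl8 itself stood at 39.1, 54.7, 58.6, 36.0, 35.9 and 55.7 CPM in WT 1 to 6 and at 75.1, 74.7, 67.1, 59.3, 78.1 and 80.9 in cKO 1 to 6, every cKO library above every WT library. A count over the whole gene does not isolate the deleted part, so these levels check nothing about the deletion. Genes of the Y chromosome marked 2 cKO libraries (cKO 1 and cKO 5) and no WT library as male. The cKO libraries of each set thus differ in sex and do not all come from the same animal, which is not known for the WT libraries.

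Upstream sequences were taken from RefSeq (GRCm38.p6), 250 bases before each start, for 32 of the 35 genes. Ndufs1, Ndufa2 and Ndufb9 were not matched. They were searched on both strands for letters bound by factors known as regulators of respiratory chain genes: GCGC followed by any pair of bases and GCGC again (NRF1), CCGGAAG (the ETS family, which includes GABPA), AAGATGGC (YY1), CAAGGTCA (estrogen-related receptors) and the GC box GGGCGG. The NRF1 letters were in the windows of 8 of 32 genes (25%: Ndufv2, Ndufs6, Ndufa5, Ndufa8, Ndufa11, Ndufs5, Ndufb4 and Ndufab1), against 4.98% of all 32851 promoter windows of that length. For the ETS letters the count was 3 of 32 (9.38%: Ndufs3, Ndufb6 and Ndufb7) against 6.91%, for the receptor letters 1 (3.12%: Ndufs5) against 1.33%, for the GC box 14 (43.8%) against 32.7%, and for the YY1 letters 0 against 1.56%. A gene counted if any of its windows matched, and Ndufa5 and Ndufa7 have more than 1 window. The background counts single windows, so the shares are not counted alike. A match is only a match of letters. The choice of sequences below leaves the GC box out, and GC boxes are not marked in them. Shown are the 3 windows with more than 1 match of the first 4 motifs (Ndufb4, Ndufv2 and Ndufs5). Of windows with a single match of these 4, 1 NRF1 and 1 ETS example are given (Ndufa11 and Ndufs3). The last is the window of Ndufv1, the gene that differed most between sets, which has none of the first 4 motifs. Capitals mark the NRF1, ETS and receptor letters, and all are on the gene's strand, 5′ to 3′: Ndufb4 with 3 NRF1 matches (chr16:37654369-37654618, minus), Ndufv2 with 2 overlapping matches (chr17:66101560-66101809, minus), Ndufa11 with 1 (chr17:56717512-56717761, plus), Ndufs5 with an NRF1 and a receptor match (chr4:123718187-123718436, minus), Ndufs3 with an ETS match (chr2:90904722-90904971, minus) and Ndufv1 (chr19:4012756-4013005, minus).
Ndufb4: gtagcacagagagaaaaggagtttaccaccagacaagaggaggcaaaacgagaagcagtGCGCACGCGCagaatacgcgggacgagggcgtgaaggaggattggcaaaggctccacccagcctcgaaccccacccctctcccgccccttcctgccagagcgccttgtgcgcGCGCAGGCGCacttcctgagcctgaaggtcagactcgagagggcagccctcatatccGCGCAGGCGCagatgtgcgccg
Ndufv2: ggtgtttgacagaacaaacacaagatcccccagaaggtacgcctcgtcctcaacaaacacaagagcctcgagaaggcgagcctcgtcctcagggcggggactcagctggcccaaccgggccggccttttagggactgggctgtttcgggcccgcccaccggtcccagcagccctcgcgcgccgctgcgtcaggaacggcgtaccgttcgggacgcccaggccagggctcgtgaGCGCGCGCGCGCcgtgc
Ndufa11: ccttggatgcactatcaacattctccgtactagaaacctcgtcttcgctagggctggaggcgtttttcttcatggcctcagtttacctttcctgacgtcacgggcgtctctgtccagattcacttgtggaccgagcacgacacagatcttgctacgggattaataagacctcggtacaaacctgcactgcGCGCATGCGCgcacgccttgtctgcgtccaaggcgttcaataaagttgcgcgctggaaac
Ndufs5: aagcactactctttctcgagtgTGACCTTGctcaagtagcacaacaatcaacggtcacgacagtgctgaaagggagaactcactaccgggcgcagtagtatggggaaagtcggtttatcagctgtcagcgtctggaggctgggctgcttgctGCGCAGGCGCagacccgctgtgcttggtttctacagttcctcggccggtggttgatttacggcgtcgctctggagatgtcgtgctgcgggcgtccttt
Ndufs3: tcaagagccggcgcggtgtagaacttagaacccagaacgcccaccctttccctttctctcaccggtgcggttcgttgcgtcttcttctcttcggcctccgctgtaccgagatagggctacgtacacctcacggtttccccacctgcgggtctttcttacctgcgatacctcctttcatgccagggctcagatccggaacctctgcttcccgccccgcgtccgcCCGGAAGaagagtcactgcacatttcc
Ndufv1: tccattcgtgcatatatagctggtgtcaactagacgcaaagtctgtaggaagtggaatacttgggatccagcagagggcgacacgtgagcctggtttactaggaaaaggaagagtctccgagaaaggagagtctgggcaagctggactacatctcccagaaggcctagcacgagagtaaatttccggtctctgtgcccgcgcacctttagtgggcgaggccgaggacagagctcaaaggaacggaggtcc

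The first comparison asked whether subunit transcripts differed between cKO and WT cells. No subunit gene passed the test (edgeR quasi-likelihood, Benjamini-Hochberg adjusted p under 0.05, library set as covariate): 0 of 35 were called, as were 0 of all 13105 genes (a background of 0%). By sign, 27 genes were lower in cKO and 8 higher, with a median log2 fold change of -0.07, against 6600 of 13105 lower (50.4%) and a median of -0.000996 over all genes. An unadjusted p under 0.05 was reached by 6 genes lower in cKO (Ndufv3, Ndufa7, Ndufa1, Ndufa3, Ndufc1 and Ndufb9, 17.1%, background 3.28%) and by 1 higher (Ndufab1, 2.86%, background 2.86%). DESeq2 and limma voom also called 0 of the 35. Within set 1 alone the median was -0.08, with 28 genes lower, and within set 2 alone -0.06, with 25 lower. In both sets 23 genes were lower. For no gene were all cKO libraries below all WT libraries within both sets (background 0.374%), nor all above (background 0.328%).

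**Figure D1:**
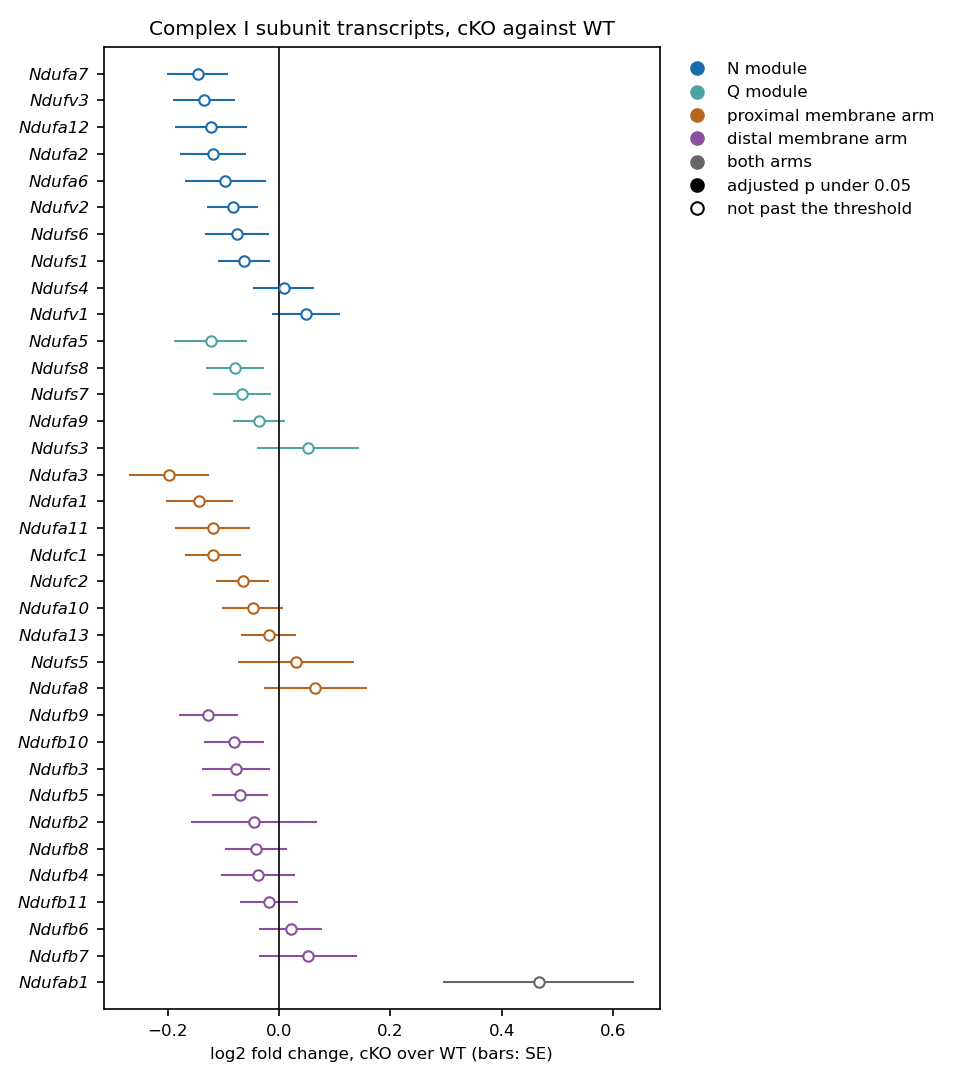
Log2 fold change of each of the 35 subunit transcripts, cKO over WT (horizontal axis), with bars of 1 standard error, genes grouped by module; open points did not pass adjusted p under 0.05. All points are open, 27 lie left of 0, and Ndufab1 lies farthest right at 0.47.

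The shift was not shared by all libraries. Each library's median deviation over the 35 genes was taken from the WT mean of its own set, in log2 units. Among the cKO libraries it was -0.02 in cKO 1, -0.13 in cKO 2, -0.14 in cKO 3, 0.05 in cKO 4, -0.08 in cKO 5 and -0.03 in cKO 6. The 6 WT libraries ran from -0.06 (WT 1) to 0.06 (WT 2). Each WT library is part of its own reference, which narrows this range, while the cKO libraries are not. On this scale cKO 2, cKO 3 and cKO 5 lay below all WT libraries and the other cKO libraries lay among them. In cKO 2 31 of 35 genes were below the WT mean and in cKO 4 11 were, against 27 in WT 1 and 9 in WT 2. As a share of all counts the 35 genes took 0.889 ± 0.0611% in WT and 0.833 ± 0.056% in cKO (SD, n = 6 each), and the ranges of 0.824 to 0.960% and 0.764 to 0.922% overlapped. Total counts were also lower in cKO (above). By genotype 5 of 5 tested neuron markers (median log2 fold change -0.18, and -0.40 within set 2), 5 of 5 astrocyte markers (-0.14, and -0.27 within set 2) and 4 of 6 oligodendrocyte lineage markers (-0.14, and -0.24 within set 2) were below 0 too, with 0 called. Within set 1 these medians were 0.02, -0.0083 and -0.04. Neuron markers summed to 118 to 297 CPM in WT and 126 to 212 in cKO, astrocyte markers to 1315 to 2631 and 996 to 2673, and oligodendrocyte lineage markers to 424 to 1119 and 369 to 1114, over both sets. The part of these values in the sign of the subunit genes was not tested. In bulk RNA, fewer cells of a type and less RNA per cell cannot be told apart.

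**Figure D2:**
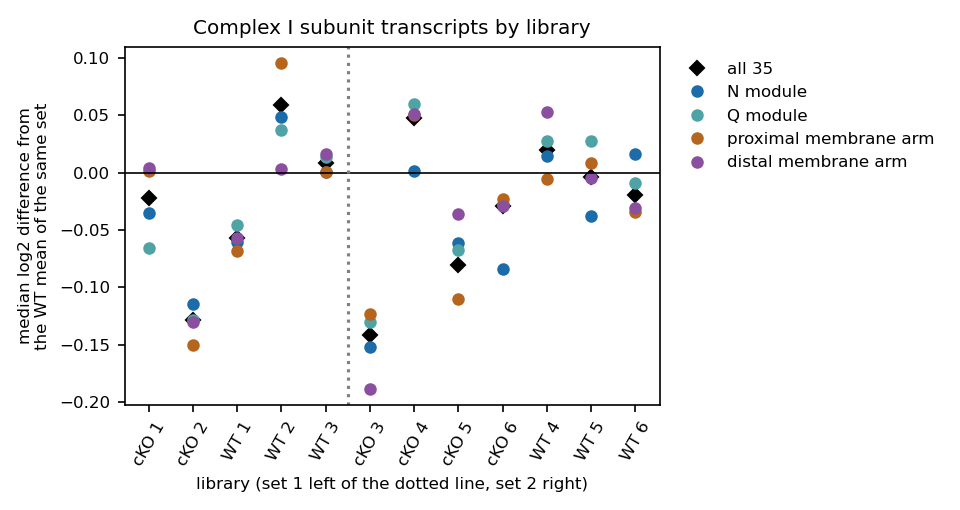
Median log2 difference of the subunit transcripts from the WT mean of the same set (vertical axis) for each of the 12 libraries (horizontal axis), for all 35 genes (diamonds) and by module (circles). The modules of a library lie near each other, cKO 2 and cKO 3 are lowest and WT 2 and cKO 4 highest.

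Among the N module genes, 8 of 10 were below 0 in cKO (median -0.09) and none was called. Ndufa7, an accessory subunit at the base of the N module (RefSeq span chr17:33824572-33838316, GRCm38.p6, as for the spans that follow), was at 261, 306 and 297 CPM in WT 1 to 3 and 286 and 244 in cKO 1 and 2. In set 2 it was at 287, 267 and 282 CPM in WT 4 to 6 and 244, 251, 249 and 249 in cKO 3 to 6. In set 1 the genotypes overlapped. In set 2 all 4 cKO libraries were lower than the WT libraries. Its log2 fold change was -0.15 (SE 0.0549, edgeR adjusted p = 0.803). Ndufv3, an accessory subunit beside the NADH-oxidizing core, had a log2 fold change of -0.14 (SE 0.0561, edgeR adjusted p = 0.803). Ndufv1, the core subunit that binds NADH and FMN, and Ndufs4, whose loss in mice gives a Leigh-like encephalopathy, had values of 0.05 and 0.0083.

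In the Q module 4 of 5 genes were below 0 (median -0.07), from -0.12 for Ndufa5 to 0.05 for Ndufs3. Ndufs7 and Ndufs8, which carry the last iron-sulfur clusters before ubiquinone, had values of -0.07 and -0.08. Over the 6 core genes 4 were below 0 (median -0.07), and over the 29 accessory genes 23 were (median -0.07).

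Of the 9 proximal membrane arm genes 7 were below 0 (median -0.07). Ndufa3 (chr7:3617347-3620165), a small accessory subunit, had the lowest value of the 35. It was at 257, 312 and 307 CPM in WT 1 to 3 and 304 and 239 in cKO 1 and 2, and in set 2 at 258, 229 and 230.5 in WT 4 to 6 and 192, 221, 201 and 182 in cKO 3 to 6. All 4 cKO libraries of set 2 lay below the WT libraries of that set, and the genotypes overlapped in set 1. The log2 fold change was -0.20 (SE 0.0722, edgeR adjusted p = 0.803). Ndufa1, a single-pass membrane subunit encoded on the X chromosome (chrX:37187588-37191238), was at 155, 185 and 177 CPM in WT 1 to 3, 172 and 145 in cKO 1 and 2, 142, 139.9 and 136 in WT 4 to 6, and 125, 130.2, 124 and 119 in cKO 3 to 6. It had the same pattern, with set 2 separated and set 1 overlapping, and a log2 fold change of -0.14 (SE 0.0601, edgeR adjusted p = 0.803). Ndufa8, a twin-CX9C protein of the intermembrane face, gave one of the higher values, 0.07 (SE 0.0931, edgeR adjusted p = 0.928). Its levels were 28.4, 28.6 and 25.4 CPM in WT 1 to 3, 30.2 and 29.4 in cKO 1 and 2, 26.6, 21.9 and 23.2 in WT 4 to 6, and 25.7, 28.1, 19.7 and 24.2 in cKO 3 to 6, with both cKO libraries above WT in set 1 and overlap in set 2. Ndufa3, Ndufa7 and Ndufa1 were the 3 lowest of the 35 by genotype, and Ndufa8 and Ndufab1 were among the 3 highest. They were shown for that reason, so separation within a single set follows in part from the choice. The share of all genes separated in this way was not counted.

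In the distal membrane arm 8 of 10 genes were below 0 (median -0.04), from -0.13 for Ndufb9, a LYR-motif protein that binds the acyl carrier protein, to 0.05 for Ndufb7, a twin-CX9C protein. Ndufb11, the other X-linked subunit, was at -0.02 (SE 0.0521).

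Ndufab1 had the highest genotype value of the 35, and the other 7 genes above 0 lay at 0.07 or less. The acyl carrier protein serves mitochondrial fatty acid synthesis and iron-sulfur cluster assembly as well as complex I. Its levels were low, at 3.20, 3.88 and 3.43 CPM in WT 1 to 3 and 6.10 and 4.09 in cKO 1 and 2, and 3.01, 2.92 and 3.51 in WT 4 to 6 and 4.38, 3.48, 4.29 and 4.52 in cKO 3 to 6. In set 1 both cKO libraries were above all WT libraries, and in set 2 cKO 4 lay just below WT 6. These are 46 to 68 reads per WT library and 42 to 94 per cKO library. The log2 fold change was 0.47 (SE 0.172, edgeR adjusted p = 0.803, unadjusted p = 0.0139). The gene (chr7:122086815-122101848) has a named copy, Ndufab1-ps, and how the authors' counting treated reads shared with it was not stated in those sources. The same holds for Ndufs6, Ndufa12, Ndufa11, Ndufs5 and Ndufb4, which also have named copies. Ndufv2, Ndufs1, Ndufa2, Ndufa9, Ndufa1, Ndufa13, Ndufb11, Ndufa10 and Ndufs7 overlap another RefSeq gene, and whether strand was used in counting is not given either.

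The second comparison set the library sets against each other. Subunit transcripts were lower in set 2: 23 of 35 were called lower (65.7%, background 22.2%) and 0 higher (background 21.5%; 1 at an unadjusted p under 0.05, Ndufc2). The median log2 fold change was -0.21, against 0.00125 over all genes, and 33 of 35 were below 0. For 16 genes all 7 set 2 libraries lay below all 5 set 1 libraries (45.7%, background 11.9%), and for none did they lie above (background 11.7%). The share of counts taken by the 35 genes was 0.921 ± 0.0414% in set 1 (SD, n = 5) and 0.818 ± 0.0312% in set 2 (SD, n = 7), with ranges of 0.860 to 0.960% and 0.764 to 0.851% that do not overlap. With the WT libraries alone 18 of the 23 genes were called, and with the cKO libraries alone 9. Calls over all genes dropped in these fits too, from 2914 lower in the full fit to the counts given in the last section. Leaving out 1 library at a time gave 20 to 24 lower calls (2522 to 2923 over all genes), and without cKO 3 Ndufc2 was called higher.

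Other measures differed between the sets too. The astrocyte markers summed to 1875 to 2673 CPM in set 1 and 996 to 1473 in set 2 (4 of 5 called lower, edgeR), the oligodendrocyte lineage markers to 863 to 1119 and 369 to 650 (4 of 6 lower) and the neuron markers to 118 to 147 and 159 to 297 (4 of 5 tested higher). The progenitor markers were split, with 4 of 8 higher and 4 lower, at 12430 to 13155 and 11012 to 15773 CPM. The microglia markers summed to 1.66 to 3.52 and 3.76 to 7.76 CPM with C1qa at 0 in every library, the endothelial markers to 1.88 to 3.30 and 1.33 to 3.20, and those of meningeal fibroblasts to 0 to 0.527 and 0.253 to 2.49. The part of these markers in the set difference of the subunit genes was not tested. Total counts overlapped between the sets, with 16.2 ± 1.8 M in set 1 (SD, n = 5) and 15.4 ± 2.15 M in set 2 (SD, n = 7).

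**Figure D3:**
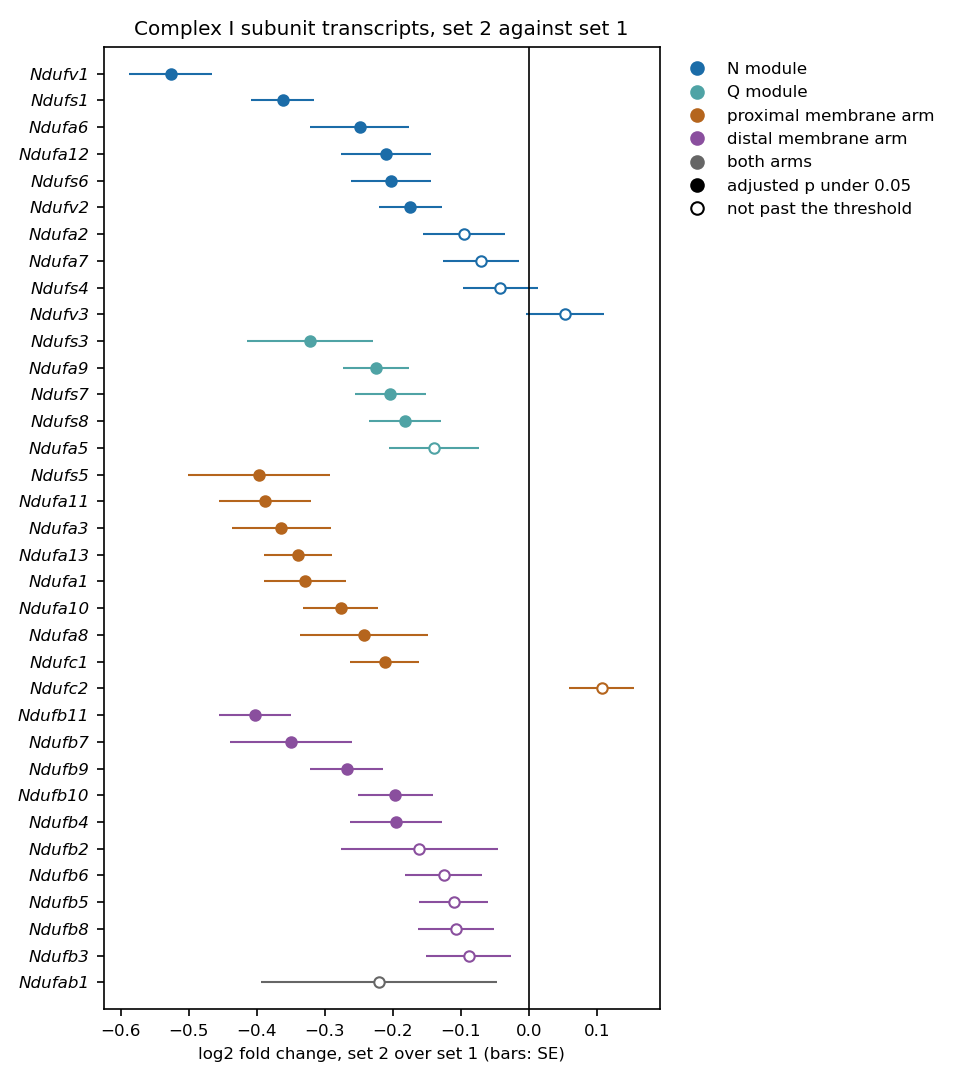
Log2 fold change of each of the 35 subunit transcripts, set 2 over set 1 (horizontal axis), with bars of 1 standard error, genes grouped by module; filled points passed adjusted p under 0.05. The 23 filled points are all left of 0, and Ndufc2 and Ndufv3 lie right of 0.

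From here on, a gene that fell or rose is one called lower or higher in set 2. All 6 core genes of the matrix arm fell in set 2 (median -0.26), and 17 of 29 accessory genes did (median -0.21), with 27 of the 29 below 0. In the N module 6 of 10 genes fell (median -0.19). Ndufv1 (chr19:4007499-4012755) differed most, at 403, 395 and 339.7 CPM in WT 1 to 3, 369 and 391 in cKO 1 and 2, 226, 264 and 279.5 in WT 4 to 6, and 286, 275, 266 and 259 in cKO 3 to 6. Every set 2 library lay below every set 1 library, and the genotypes overlapped within both sets. Its level in set 2 was 69.4% of that in set 1 (log2 fold change -0.53, SE 0.0611, edgeR adjusted p = 1.20e-06). Ndufs1 (chr1:63143592-63176822), the large core subunit with several iron-sulfur clusters, was at 717, 764 and 720.2 CPM in WT 1 to 3, 675 and 723 in cKO 1 and 2, 542, 609.8 and 553 in WT 4 to 6, and 523.5, 542.5, 556 and 562 in cKO 3 to 6. The sets did not overlap here either, and the log2 fold change was -0.36 (SE 0.0466, edgeR adjusted p = 4.13e-06). The third N module core gene, Ndufv2, gave -0.17 (adjusted p = 0.00506). Of the accessory N module genes Ndufs6, Ndufa6 and Ndufa12 fell, by 0.20, 0.25 and 0.21 on the log2 scale, the last not without cKO 1. Ndufa2, Ndufa7, Ndufs4 and Ndufv3, with values from -0.10 to 0.05, were not called.

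Of the Q module genes 4 of 5 fell (median -0.20). Ndufs3, a core subunit of the module's scaffold, was at 37.2, 34.7 and 38.8 CPM in WT 1 to 3, 30.6 and 35.8 in cKO 1 and 2, 27.3, 27.6 and 24.2 in WT 4 to 6, and 26.4, 30.6, 29.99 and 34.0 in cKO 3 to 6. The sets were separated among WT libraries and overlapped among cKO libraries. Its log2 fold change was -0.32 (SE 0.093, edgeR adjusted p = 0.00869). Ndufa9, a nucleotide-binding subunit near the membrane, fell by 0.22 on the log2 scale, Ndufs7 by 0.20 and Ndufs8 by 0.18. Ndufa5 (-0.14, adjusted p = 0.096) was not called, but was in the fits without WT 1 or without cKO 4.

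The proximal membrane arm had 8 of 9 genes lower in set 2 (median -0.33). Ndufa13, also known as GRIM-19, was at 384, 365 and 378 CPM in WT 1 to 3, 369 and 353.5 in cKO 1 and 2, 286, 297 and 289.9 in WT 4 to 6, and 288, 317, 271 and 294 in cKO 3 to 6. The sets did not overlap, and the log2 fold change was -0.34 (SE 0.0496, edgeR adjusted p = 1.85e-05). Ndufa11, a subunit that contacts complex III in supercomplexes, was at 169, 192 and 177 CPM in WT 1 to 3, 179 and 158 in cKO 1 and 2, 139, 148 and 132 in WT 4 to 6, and 112, 145, 132 and 118 in cKO 3 to 6. It too was separated by set (-0.39, SE 0.0681, edgeR adjusted p = 1.30e-04). Ndufa10, which has a nucleoside kinase fold, was at 136.5, 127 and 128 CPM in WT 1 to 3, 126 and 118 in cKO 1 and 2, 100.02, 109.9 and 104 in WT 4 to 6, and 101, 108, 104 and 103 in cKO 3 to 6. It fell by 0.28 on the log2 scale with no overlap (SE 0.055, edgeR adjusted p = 4.29e-04). From the levels given above, Ndufa1 was also separated by set (-0.33, edgeR adjusted p = 2.08e-04) and Ndufa3 overlapped, since cKO 2 of set 1 lay below WT 4 of set 2 (-0.36, edgeR adjusted p = 4.51e-04). Ndufs5 fell by 0.40 and Ndufc1 by 0.21 on the log2 scale.

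Calls within the proximal arm were not equally firm. Ndufa8 passed narrowly (-0.24, SE 0.0939, edgeR adjusted p = 0.0434), and leaving out any 1 of WT 1, WT 2, WT 5, WT 6, cKO 1, cKO 2, cKO 5 or cKO 6 lost the call, with values from -0.28 to -0.20 over all 12 such fits. Ndufc2, which joins the membrane arm with Ndufc1, went the other way without being called (0.11, adjusted p = 0.0775). It was at 908, 973 and 977 CPM in WT 1 to 3, 893 and 932 in cKO 1 and 2, 1024 and 1073 in WT 4 and 5, 988 in WT 6, and 893, 982, 994 and 1055 in cKO 3 to 6. The sets overlapped.

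In the distal membrane arm all 10 genes were below 0 (median -0.18) and 5 fell. Ndufb11 (chrX:20615326-20617619) was at 285, 289 and 288 CPM in WT 1 to 3, 272 and 263 in cKO 1 and 2, 203, 202 and 216 in WT 4 to 6, and 214, 230.4, 208 and 201 in cKO 3 to 6. The sets did not overlap (-0.40, SE 0.0525, edgeR adjusted p = 4.80e-06). Ndufb7 was at 161, 128 and 133 CPM in WT 1 to 3, 143 and 123 in cKO 1 and 2, 106, 99.2 and 103 in WT 4 to 6, and 120.3, 137, 95.1 and 101.5 in cKO 3 to 6. It fell by 0.35 on the log2 scale (SE 0.0895, edgeR adjusted p = 0.00366), although cKO 4 of set 2 lay above 3 of the 5 libraries of set 1. Ndufb9 and Ndufb10 fell by 0.27 and 0.20, and Ndufb4 by 0.19, a call lost without WT 3, WT 5, WT 6 or cKO 1. Ndufb2, Ndufb3, Ndufb5, Ndufb6 and Ndufb8, with values from -0.16 to -0.09, were not called. Nor was Ndufab1 (-0.22, SE 0.174, adjusted p = 0.327).

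**Figure D4:**
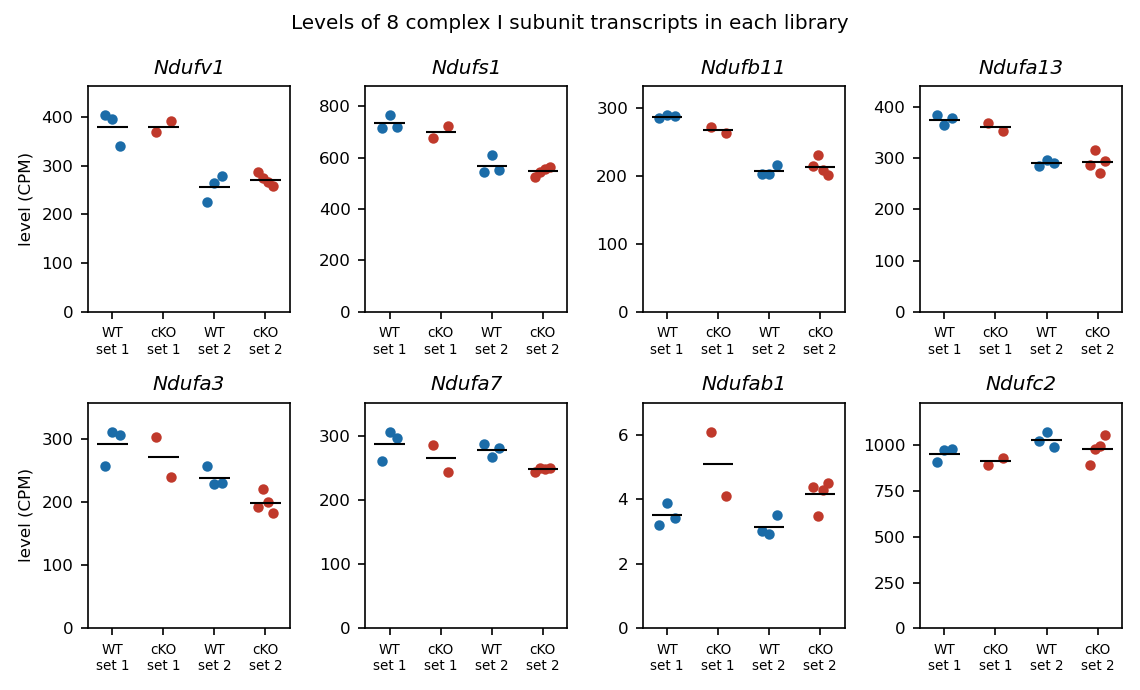
Level in CPM (vertical axes, from 0) of 8 subunit transcripts in each library, by genotype and set; points are libraries and lines are means. The sets do not overlap for Ndufv1, Ndufs1, Ndufb11 and Ndufa13. Both cKO libraries of set 1 lie below its WT libraries for Ndufb11. Ndufa3 and Ndufa7, among the 3 lowest by genotype, separate by genotype in set 2 and overlap in set 1.

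The set difference was also listed by the NRF1 letters, with no test made. Of the 8 genes with NRF1 letters 6 fell in set 2, with a median over the 8 of -0.21, and of the 24 matched genes without them 15 fell, also with a median of -0.21. Ndufa5 (-0.14) and Ndufab1 (-0.22) have the letters and were below 0 without being called. Ndufv1 fell most and has no such letters in its window.

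Whether the genotype difference itself differed between sets was tested as an interaction. No gene was called, neither of the 35 nor of all 13105 (background 0%), and 0 of the 35 had an unadjusted p under 0.05 (background 3.54%). DESeq2 called 0 of the 35 as well. The largest coefficient of the 35 was that of Ndufs3 (0.35, unadjusted p = 0.0605). The levels above show it, with cKO 1 and 2 at 30.6 and 35.8 CPM against 34.7 to 38.8 in WT of set 1, and cKO 3 to 6 at 26.4 to 34.0 against 24.2 to 27.6 in WT of set 2. The next largest was 0.23 for Ndufb7.

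The spread between libraries sets what these comparisons could show. After removing genotype, set and their interaction, the residual SD over the 12 libraries on the log2 scale had a median of 0.0881 over the 35 genes, from 0.0527 for Ndufs7 to 0.224 for Ndufb2, against 0.198 over all genes. The median SE of the genotype fold change was 0.0561 over the 35 genes and 0.115 over all.

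The rest of the complex and its partners were set beside them. Ndufa4, once counted as a subunit and now assigned to complex IV, had log2 fold changes of -0.12 by genotype (not called) and -0.27 by set (edgeR adjusted p = 8.30e-04). Of the 7 subunits encoded in mitochondrial DNA 5 were tested. All 5 were below 0 by genotype, none called, from -0.10 for mt-Nd2 to -0.05 for mt-Nd5, and their median was 0.0013 within set 1 and -0.14 within set 2. By set mt-Nd1 and mt-Nd4 fell, by 0.17 and 0.35. mt-Nd3 and mt-Nd4l were listed at 0 in every library.

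Assembly factors build the complex without staying in it. Of 18 listed, 12 were tested, with 9 below 0 and none called by genotype (median -0.05), from -0.14 for Ndufaf1 to 0.10 for Tmem186. By set 5 of 12 fell (41.7%, background 22.2%): Tmem126b by 0.52, Foxred1 by 0.50, Tmem186 by 0.44, Aifm1, which helps import intermembrane space proteins, by 0.22, and Ndufaf1 by 0.18 on the log2 scale. Ndufaf4 rose by 0.41 (SE 0.0709, edgeR adjusted p = 1.14e-04).

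The 9 listed regulators of respiratory chain genes were all tested. By genotype none was called, from -0.43 for Esrra (SE 0.304) to 0.48 for Ppargc1b (SE 0.279). Levels of both were low, with WT means of 1.64 and 1.28 CPM. By set 5 of 9 rose (background 21.5%): the coactivators Ppargc1b (1.41) and Pprc1 (1.18), Gabpb1 (0.51), which partners GABPA, Yy1 (0.45) and Sp1 (0.40). Ppargc1a, the coactivator best known for raising mitochondrial content, fell by 0.74 (SE 0.0723, edgeR adjusted p = 1.39e-07). Nrf1, at 0.08, was not called.

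Complexes II to V are the other respiratory complexes and ATP synthase. Of 38 listed genes of complexes II to V 37 were tested. By genotype 28 were below 0, with a median of -0.08 and none called, from -0.50 for Atp5g2 to 0.10 for Atp5d, and 15 of the 37 had an unadjusted p under 0.05 toward lower (background 3.28%). Atp5g2 was at a low level (WT mean 1.88 CPM, SE of the fold change 0.276). By set 27 fell (73%, background 22.2%) and 0 rose (background 21.5%), with a median of -0.19. No test compared this list with the complex I genes.

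HAC-seq gave a second readout of the same transcripts. Its table held 420 C sites that the authors' annotation places in the 35 genes on the gene's strand, at least 1 in each (GRCm38.p6; whether a site is exonic or intronic was not analysed here). A cleavage ratio is the share of the reads covering a site that start next to it. Of 13240 sites with enough coverage and cleavage to test, 31 lay in 18 of the genes. None was called between genotypes (0 of 31, background 0.00755%, quasi-binomial fit with limma's squeezed dispersions). An unadjusted p under 0.05 was reached by 2 sites higher in cKO (6.45%, background 6.62%) and 0 lower (background 2.02%). One was in Ndufc2 (chr7:97400287), with ratios of 3.07, 4.55, 4.93 and 4.52% in WT 1 to 4 and 5.63, 6.78 and 10.3% in cKO 1 to 3, from 118 to 326 reads, with no overlap between the genotypes (limma adjusted p = 0.575). The other was in Ndufb8 (chr19:44554975), at 1.92, 2.75, 1.79 and 3.47% in WT and 16.7, 2.70 and 6.74% in cKO, where cKO 2 lay among the WT libraries (limma adjusted p = 0.575). The minimum mean ratio of 0.05 was taken over both genotypes together. At both sites every WT library was below that minimum, so the sites were kept through cKO. Their direction, and the separation at Ndufc2, follow in part from that. Of the 31 sites 22 were higher in cKO (71%), against 61.4% of all tested sites.

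A site in Ndufs8 (chr19:3911236, minus) had a p of 2.19e-05 in the authors' deposited table. Reads started there 3, 2, 2 and 2 times among 249, 173, 160 and 176 reads in WT 1 to 4, and 0 times among 95, 121 and 127 reads in cKO 1 to 3. The table keeps only sites with more than 1 start in every WT library, so a site at 0 in all cKO libraries is separated by how it was kept. Its mean ratio is below the 0.05 needed for the test above.

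Coverage at these sites also bears on transcript level, with no test made. Scaled to the library, it was lower in cKO for 24 of the 35 genes (68.6%), with a median log2 ratio of -0.16, against 53.2% and -0.02 over the 5654 genes with a site of their own. Sites were kept by their read starts in every WT library (above), with no such rule seen for cKO. Coverage can lean lower in cKO through that, among the 35 and the 5654, and the size of the lean was not measured. The 35 could also keep sites shared with another gene, which the 5654 left out, so the background is not built alike. For Ndufa11, Ndufab1 and Ndufb9 all 3 cKO libraries lay below all 4 WT libraries (8.57%, background 6.12%), and for 0 of the 35 did all lie above (background 4.53%). The first share is near its background and is not read as a trait of these genes. Ndufab1, the gene highest in cKO by RNA-seq, gave -0.26 here, the opposite sign, from 27 sites. Ndufa11 (-0.36, 1 site) and Ndufb9 (-0.20, 5 sites) had the same sign in both assays, with RNA-seq values of -0.12 and -0.13. They are named for their low coverage in cKO, and 27 of the 35 genes were below 0 by RNA-seq.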

How the data were processed

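Per the labels, RNA-seq covered 6 WT and 6 cKO libraries and HAC-seq 4 WT and 3 cKO libraries. The submitters' processing notes name STAR 2.5.2a, Trimmomatic 0.32 and bcl2fastq 2.17.1.14, with builds GRCm38 (RNA-seq) and GRCm38.p6 (HAC-seq). No counting program is given in the sources used here. For RNA-seq the authors deposited raw counts of reads by gene. The deposited HAC-seq table gives, per C site and library, read starts (a signal), the count of covering reads and their quotient as a fraction, with the authors' p-value per site. The number of unmapped sample columns was 0.

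Counts were fitted with edgeR 4.0.16 under R 4.3.3 (low counts filtered by filterByExpr on genotype, TMM scaling, quasi-likelihood F test, two-sided), with genotype and library set as terms and Benjamini-Hochberg adjustment at 0.05 over 13105 genes. Of the 26621 genes 6309 had no read. Counts of 1 to 10 were odd in 17.4% of cases and counts of 101 to 1000 in 50.1%, so low counts tended to be even and need not be single independent reads. Levels are CPM after TMM scaling, with a prior count of 2 where logged. HAC-seq sites were tested where coverage was at least 50 in each library and the mean ratio at least 0.05, by a quasi-binomial F test with dispersions squeezed in limma 3.58.1. The edgeR tests of genotype and of library set and the HAC-seq site test were tried on simulated data. The interaction test and the other methods were not. Alternatives were other scalings and filters, DESeq2 1.42.0, limma voom, embryo sex as a covariate, each set or genotype alone, the replicate number as a block, and leaving out each replicate.

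Values in every library are given for members past the threshold (at most 8, by p), the 3 lowest and 3 highest by genotype, the X-linked members, and the 2 with the largest interaction. Ndufc2 and Mettl8 were added after their values were seen. The rule also asked for the highest and lowest level per length. Transcript lengths were not used here, so no levels are compared between genes. Of each related list the called genes and the extremes by genotype are named, and genes called by set were added after their values were seen. A gene of these lists is not reported here. The members, lists and markers were chosen with earlier results of these data known. Replicate numbers did not pair the samples (correlations from -0.0486 to 0.172).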

Additional observations from a re-analysis of the deposited data

Results flagged for a closer look

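Among 72 sets of 6 libraries (the CPM of each of the 35 subunit genes, and the libraries' median deviation over them, in WT and in cKO), Dixon's gap test at the 95% level marked 2, where chance marks about 1 in 20. Both concern cKO 1, a library of set 1 marked as male. Ndufa2 was at 338.792 CPM there, against 275.831 to 291.845 in the other 5 cKO libraries. Ndufa7 was at 286.455 CPM, against 243.773 to 250.882. Both values lay inside the range of the WT libraries of set 1, which was 298.0 to 356.6 CPM for Ndufa2 and 261 to 306 CPM for Ndufa7.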

How the results depend on the processing

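By genotype 0 of the 35 subunit genes were called under every alternative run, and leaving out 1 library gave 26 to 29 genes below 0 and medians from -0.08 to -0.05. Over all genes the genotype calls were 65 without a filter on low counts, 2 with the replicate block, 2 with DESeq2, 1 with limma voom, 2 in set 2 alone and 0 to 1 without 1 library. For the interaction they were 35 without the filter, 1 with DESeq2 and 0 to 1 without 1 library, and 0 of the 35 in each.

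The set difference kept its sign for all named genes. Calls lower among the 35 were 9 with cKO libraries alone and 20 to 24 without 1 library, where the calls higher were 0 to 1. With the replicate block they were 2, with a median of -0.32. The set term then rests on the libraries numbered 3, the only number that lies in different sets. Calls over all genes were 461 lower and 563 higher with the replicate block, 1798 and 1763 with WT libraries alone, and 1669 and 1734 with cKO libraries alone. Of 6 numbers 1 correlated best with its own (4), and same-numbered samples share only a number.

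Some genotype values near 0 changed sign, none of them called. Ndufa13 was at 0.0056 with embryo sex as a covariate and 0.0091 in set 2 alone. Without the library set term Ndufv1 was at -0.0477, Ndufb7 at -0.0189 and Ndufs3 at -0.0185. In set 1 alone Ndufb7 was at -0.0806 and Ndufs3 at -0.15, and in set 2 alone Ndufb11 was at 0.0435. Leaving out 1 library gave -0.000766 (without WT 6) to 0.124 for Ndufs3, -0.0437 to 0.00546 (without cKO 2) for Ndufb11 and -0.0123 (without cKO 4) to 0.110 for Ndufb7. The cause was not tested. In HAC-seq 0 subunit sites were called under every alternative. Depth limits Ndufab1 most, with 42 to 94 reads per library.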
